A study of Mus musculus with 14 samples.

Results

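Homozygous Polg mutant progenitors that carried N-Myc (Hom-NMyc, 2 arrays) were set against wild-type and heterozygous progenitors that carried the same vector (WT-NMyc and Het-NMyc, pooled as 4 arrays). These 6 arrays of the 14 in the series were chosen by their labels, genotype for genotype and vector for vector, and not by any measured value. The series asked how gene expression changes with N-Myc and with somatic mutations of mitochondrial DNA. The cells were mouse hematopoietic progenitor cells (HPCs), meaning lineage-negative bone marrow cells, which were cultured for 48 h and then transduced with retrovirus. RNA was hybridised to Affymetrix whole-transcript arrays.

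The Hom-NMyc cells came from Polg mut/mut mice, the Het-NMyc cells from Polg wt/mut mice and the WT-NMyc cells from Polg wt/wt mice, and all 6 samples received MSCV-NMyc-IRES-YFP. The Ctrl counterparts, Hom-Ctrl (2 arrays), Het-Ctrl (3) and WT-Ctrl (3), received MSCV-IRES-YFP, which carries the yellow fluorescent marker alone. Both vectors came from GP+E86 packaging cells. The mutated position in Polg, the age of the mice and any sort for the marker have no statement in the labels used here. The samples are labelled as biological replicates, but nothing says that they came from separate mice or cultures, so a p-value gauges only how far these samples scatter, which may be technical. In bulk samples of this kind, fewer cells of a type and less RNA per cell cannot be told apart.

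Polg encodes the catalytic part of polymerase gamma, which replicates the genome of mitochondria. In mice with a proofreading-deficient allele, mutations of mitochondrial DNA build up in somatic tissues and blood formation is disturbed. N-Myc, encoded by Mycn, is a transcription factor of the MYC family that pairs with MAX and drives growth and proliferation. When mitochondria are impaired, mammalian cells often engage the integrated stress response, in which the transcription factor ATF4 induces genes of amino acid uptake and synthesis. p53, the tumor suppressor, is another sensor of damage, with Cdkn1a and Mdm2 among its best known targets.

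The Hom-NMyc arrays stood apart from the other 4 on the first principal component of the 6 NMyc arrays, which held 33.5% of the variance. The Hom-NMyc arrays lay at 19.4 and 22.4 on it, against -20.6 and -12.0 for the WT-NMyc arrays and -5.53 and -3.68 for the Het-NMyc arrays. The Het-NMyc arrays thus lay between the other genotypes. The second component (20.3%) separated the replicate numbers: all replicate 1 arrays were positive (9.89 to 15.02) and all replicate 2 arrays negative (-15.03 to -5.64). The median positive control set exceeded the median negative one by 4.52 and 4.52 log2 units in the Hom-NMyc arrays, against 4.04 and 4.34 in the WT-NMyc arrays and 4.27 and 4.48 in the Het-NMyc arrays. This contrast between bright and dim sets was therefore highest in the Hom-NMyc arrays. With it as a covariate, an alternative added after seeing the data, the comparison below gave 2 calls where it otherwise gave 0, and list medians with it are given beside the lists.

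**Figure D1:**
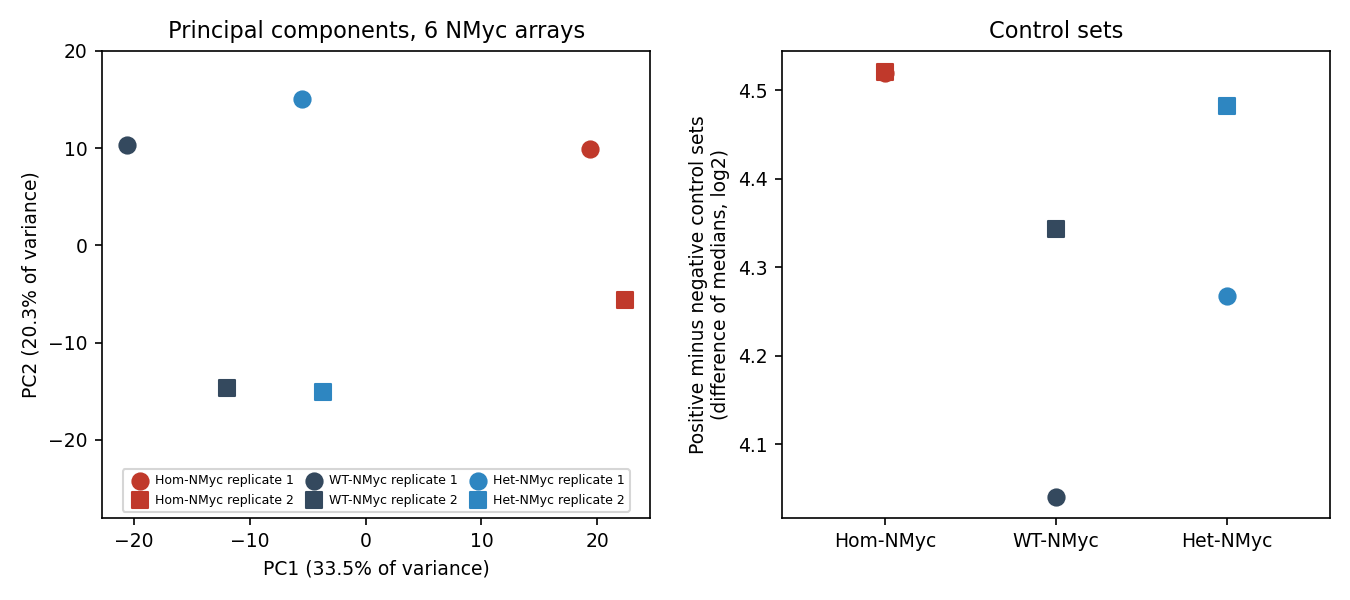
The left panel plots the 6 NMyc arrays on their first and second principal components (33.5% and 20.3% of the variance), with Hom-NMyc in red, WT-NMyc in dark grey, Het-NMyc in blue, circles for replicate 1 and squares for replicate 2. Both Hom-NMyc arrays lie to the right of the other 4, and in the right panel, which plots the difference between the medians of positive and negative control sets on the log2 scale, they lie at 4.52.

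The hematopoietic label was checked against defining markers in the 6 NMyc arrays. Ptprc (CD45, the pan-leukocyte antigen) read 9.20 to 9.55 and Spi1 (PU.1, a myeloid transcription factor) 12.8 to 12.9. Of the 40 gene lists used below, 971 of 1067 entries were measured. The megakaryocyte, erythroid, B, T and NK, and stromal lists had medians between -0.07 and 0.09. Log2 values were also summed over the measured defining markers. The sum of 2 B cell markers was 10.7 to 10.8 in the Hom-NMyc arrays against 10.9 to 11.4 in the other 4. The sum of 3 T and NK cell markers was 14.6 to 15.5 against 15.2 to 16.0. The sum of 3 stromal and endothelial markers was 17.2 to 17.7 against 16.7 to 18.2. Each of these markers read below 7.51, the 95th percentile of the negative control sets, in every NMyc array. Ncr1 was above the negative control median in none of the 6. Mycn itself read 12.38 and 12.28 in the Hom-NMyc arrays, against 12.17 and 12.30 in the WT-NMyc arrays and 12.27 and 12.15 in the Het-NMyc arrays. The transduced gene therefore overlapped between the genotypes, and the difference was 0.11 (standard error, SE, 0.36, limma's adjusted p = 0.958). That SE draws on the spread of all 14 arrays, among them Hom-Ctrl at 9.77 and 7.61. The standard deviation of the WT-NMyc and Het-NMyc arrays was only 0.07, so the p-value does not gauge the scatter of the NMyc arrays. Polg differed by -0.17 (SE 0.18, adjusted p = 0.833), and a transcript level does not check a point mutation.

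No probe set passed the test for the genotype difference under N-Myc. With limma, adjusted with the Benjamini-Hochberg method over 22206 probe sets, 0 were called at an adjusted p under 0.05 (0%), and the smallest adjusted p was 0.0701. At an unadjusted p under 0.05 there were 1794 (8.08%), of which 1130 (5.09%) read higher in Hom-NMyc and 664 (2.99%) lower. Homozygous against wild type gave 0 calls (1873 at the unadjusted threshold, 8.43%) and homozygous against heterozygous gave 0 (1093, 4.92%). Heterozygous against wild type gave 0 with 576 at the unadjusted threshold (2.59%). Differences were modest in size, with 95% of probe sets within 0.42 of 0 on the log2 scale, and the median SE was 0.17.

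The genes closest to the threshold on the higher side were Serpinb10, Synj2, Tifab, Ces2g and Tiam2, the 5 with the smallest p. Serpinb10, a serine protease inhibitor made in bone marrow (bomapin), read 7.72 and 7.99 in the Hom-NMyc arrays, against 6.85 and 6.58 in the WT-NMyc arrays and 6.86 and 6.98 in the Het-NMyc arrays. Both Hom-NMyc arrays were above all 4 others, which lay close together. The difference was 1.04 (SE 0.15, 2.05-fold, adjusted p = 0.0701 with limma), and was 0.87 within replicate 1 and 1.21 within replicate 2. Tifab, an inhibitor of the TRAF6 pathway in hematopoietic cells, read 7.32 and 7.54 in the Hom-NMyc arrays, against 6.16 and 6.56 in the WT-NMyc arrays and 6.55 and 6.65 in the Het-NMyc arrays, again without overlap (0.95, SE 0.17). The Rac activator Tiam2 read 7.16 in both Hom-NMyc arrays, against 6.28 to 6.70 in the other 4. Synj2, an inositol phosphatase, differed by 0.80 and Ces2g, a carboxylesterase, by 0.96. The adjusted p was 0.205 for each of these last 4 genes.

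On the lower side the 5 genes with the smallest p were Scd1, Tekt4, Cstdc5, Rpa3 and Mpzl3. Scd1, the stearoyl-CoA desaturase that makes monounsaturated fatty acids, read 8.83 and 7.75 in the Hom-NMyc arrays, against 9.36 and 9.76 in the WT-NMyc arrays and 9.91 and 9.65 in the Het-NMyc arrays. Both Hom-NMyc arrays were below the rest, but they lay more than 1 log2 unit apart. The difference was -1.38 (SE 0.24, limma's adjusted p = 0.205), with -0.80 within replicate 1 and -1.96 within replicate 2. It was -1.92 without Hom-NMyc replicate 1 (adjusted p = 0.00909) and -0.84 without Hom-NMyc replicate 2 (adjusted p = 0.999), where the lone Hom-NMyc array is assumed to vary like the other groups. Rpa3, the smallest subunit of the single-stranded DNA binding protein RPA, read 8.96 and 8.98 in the Hom-NMyc arrays, against 9.57 to 9.70 in the other 4. Its replicates lay close together in every genotype, and the difference was -0.65 (SE 0.14, adjusted p = 0.282). Cstdc5, a gene of the stefin A cluster of cysteine protease inhibitors, differed by -0.85 (SE 0.18), Tekt4, a tektin of cilia and flagella, by -0.80 and Mpzl3, a membrane protein of the myelin protein zero family, by -0.61.

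**Figure D2:**
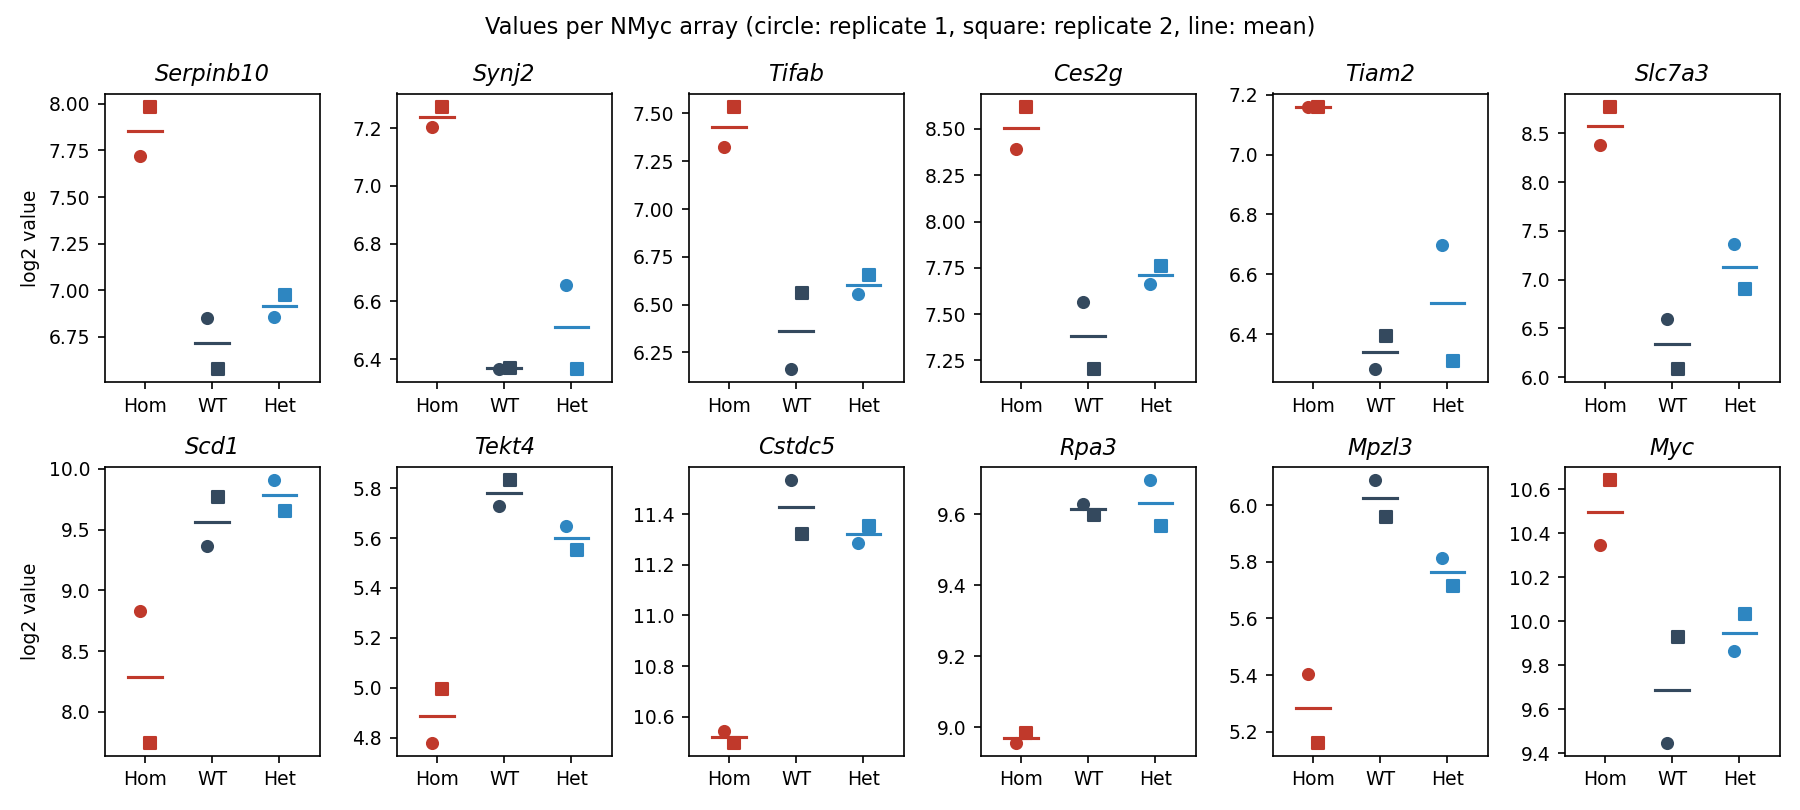
Each panel plots the log2 value of 1 gene in the 6 NMyc arrays, with Hom-NMyc left of WT-NMyc and Het-NMyc, circles for replicate 1, squares for replicate 2 and a line at each mean, and the vertical scales differ between panels. The Hom-NMyc arrays do not overlap the other 4 in any panel. For Slc7a3 they lie at 8.38 and 8.77, against 6.08 to 7.37 in the other 4. The replicates of Scd1 in Hom-NMyc lie furthest apart.

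Among 12 probe sets that differed by at least 1 log2 unit at the unadjusted threshold, 7 read higher and 5 lower. These and the other genes of this paragraph were chosen after their values were seen. The largest difference was that of Slc7a3, a transporter of cationic amino acids such as arginine and lysine, which read 8.38 and 8.77 in the Hom-NMyc arrays, against 6.59 and 6.08 in the WT-NMyc arrays and 7.37 and 6.90 in the Het-NMyc arrays. The heterozygous arrays lay between the other genotypes, and no group overlapped another. The difference was 1.84 (SE 0.41, 3.58-fold, limma's adjusted p = 0.282), and was 2.24 against WT-NMyc and 1.44 against Het-NMyc. Reep6, an endoplasmic reticulum protein, differed by 1.05 and Igtp, an interferon-inducible GTPase, by 1.00. Sccpdh, a putative dehydrogenase, and Klrb1f, a lectin-like receptor, each differed by 1.03. Bcl2, the antiapoptotic mitochondrial protein, read 9.26 and 9.02 in the Hom-NMyc arrays, against 8.44 and 7.88 in the WT-NMyc arrays and 8.65 and 7.90 in the Het-NMyc arrays (0.93, SE 0.28, adjusted p = 0.406). Kcnq1ot1, the imprinted noncoding RNA, read 6.24 and 6.42 in the Hom-NMyc arrays, against 6.82 to 7.84 in the other 4 (-1.001, SE 0.27, adjusted p = 0.391).

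The genotype difference was also taken within each of the 2 replicate numbers. The difference within replicate 1 correlated with that within replicate 2 at r = 0.367 across 22206 probe sets, and 63.5% had the same sign in both. The same 6 arrays contribute to every probe set, which are no independent replicates, so this r describes the arrays. Of the 1794 probe sets at the unadjusted threshold, 1653 had groups that did not overlap, which entails the same sign within both numbers. For 1260 of the 1794 (70.2%) the Het-NMyc mean lay between the WT-NMyc and Hom-NMyc means, against 44.0% of all tested probe sets. The 1794 were chosen by the difference between Hom-NMyc and both other genotypes, so that share is given as a description.

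**Figure D3:**
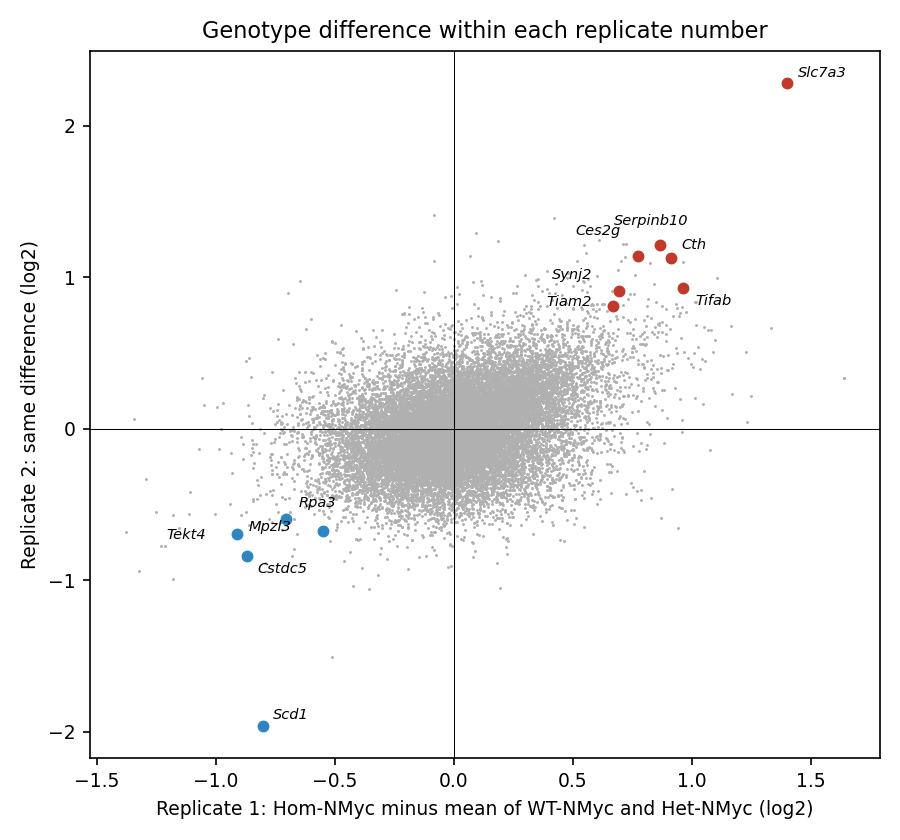
Each grey point is 1 of 22206 probe sets, with the log2 difference between Hom-NMyc and the mean of WT-NMyc and Het-NMyc in replicate 1 on the horizontal axis and in replicate 2 on the vertical axis. Named genes are in red where Hom-NMyc read higher and in blue where it read lower, and Slc7a3 (1.40 and 2.28) and Scd1 (-0.80 and -1.96) lie furthest from the cloud.

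Lists of genes were read by how many members had both Hom-NMyc arrays above, or below, all 4 other NMyc arrays. Over all 22206 probe sets, 3235 lay above (14.6%) and 2505 below (11.3%). These shares depended on brightness: 4.27% lay above in the dimmest 25% of probe sets and 27.2% in the brightest 25%, while 9.60% and 13.2% lay below. Lists of well expressed genes are therefore to be read against the brightest 25%, in which the median difference was 0.06.

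The largest positive differences in any list were those of Slc7a3 and Cth, both ATF4 targets. Of 37 measured members of the ATF4 list, 16 lay above all 4 others (43.2%) and 3 below (8.11%), against 27.2% and 13.2% of the brightest 25%. The median difference was 0.12 against 0.06 for the brightest 25% of probe sets (-0.01 for all), and 0 were called. With the control-set contrast as a covariate that median was 0.01. The 7 members that read higher at the unadjusted threshold were Slc7a3, Cth, Stc2, Gpt2, Asns, Chac1 and Vldlr. Cth, the cystathionine lyase that makes cysteine, read 9.51 and 9.47 in the Hom-NMyc arrays, against 8.42 and 8.09 in the WT-NMyc arrays and 8.79 and 8.60 in the Het-NMyc arrays (1.02, SE 0.23, limma's adjusted p = 0.282). Asns, the asparagine synthetase, read 11.76 and 11.69 in the Hom-NMyc arrays, against 10.97 and 11.05 in the WT-NMyc arrays and 11.18 and 11.29 in the Het-NMyc arrays. Neither gene overlapped between Hom-NMyc and the rest, and for both the Het-NMyc arrays were above the WT-NMyc arrays. Gpt2, the mitochondrial alanine aminotransferase, differed by 0.61 and Stc2, a secreted glycoprotein of stress responses, by 0.62. Atf4 itself differed by -0.07, Mthfd2, a mitochondrial folate enzyme, by -0.05 and Mars1, the methionyl-tRNA synthetase, by -0.26.

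Promoters are shown for the members of those 7 that carry the core of the composite C/EBP-ATF element through which ATF4 acts. This choice was made after the values were seen. RefSeq windows (assembly GRCm38.p6, 250 bases before to 50 after the start) were found for 5 of the 7 genes, not for Cth and Slc7a3. Both strands were searched for TGATGNAA, and 3 genes held a match, which is in capitals below and is reverse-complemented where it lies on the other strand. For Vldlr the match was in 1 of 2 windows.
Chac1, chr2:119350992-119351291, plus strand: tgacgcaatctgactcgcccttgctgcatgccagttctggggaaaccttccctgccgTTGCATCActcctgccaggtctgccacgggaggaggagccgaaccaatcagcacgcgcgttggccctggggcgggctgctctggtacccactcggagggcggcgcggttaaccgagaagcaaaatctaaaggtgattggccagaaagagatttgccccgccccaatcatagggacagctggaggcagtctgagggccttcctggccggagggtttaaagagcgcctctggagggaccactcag
Asns, chr6:7693160-7693459, minus strand: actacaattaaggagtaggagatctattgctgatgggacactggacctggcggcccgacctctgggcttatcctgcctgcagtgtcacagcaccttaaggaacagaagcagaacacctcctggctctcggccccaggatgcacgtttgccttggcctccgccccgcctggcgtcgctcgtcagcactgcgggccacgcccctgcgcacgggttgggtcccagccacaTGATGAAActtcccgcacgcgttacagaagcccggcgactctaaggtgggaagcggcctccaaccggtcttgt
Vldlr, chr19:27216770-27217069, plus strand: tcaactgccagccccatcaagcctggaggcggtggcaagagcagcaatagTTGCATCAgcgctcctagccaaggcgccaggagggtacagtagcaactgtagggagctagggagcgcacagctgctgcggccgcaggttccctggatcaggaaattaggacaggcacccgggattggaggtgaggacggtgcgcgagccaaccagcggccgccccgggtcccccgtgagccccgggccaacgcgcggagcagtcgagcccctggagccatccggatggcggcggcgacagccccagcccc
A match stood in 3.97% of all 32851 windows and in 4.51% of 27025 genes with any window, against 10 of 30 genes of the ATF4 list (33.3%). The E-box CACGTG, the site of MYC and MAX, was found in 0 of the 3 windows shown and in 4 of 30 genes of the ATF4 list (13.3%), against 8.09% of all genes. A match is a description of the letters in the window and not evidence of binding.

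Amino acid transporters lay above all 4 others in 11 of 20 members and below in 1, with a median of 0.21, and Slc7a3 is a member here too. Slc7a8, a light chain for large neutral amino acids, read 11.54 and 11.58 in the Hom-NMyc arrays, against 10.79 in both WT-NMyc arrays and 11.11 and 11.05 in the Het-NMyc arrays (0.62, SE 0.14, limma's adjusted p = 0.282). Its 3 genotypes did not overlap. Slc7a7, which exports cationic amino acids, differed by 0.71 and Slc36a4 by 0.44. The transsulfuration and glutathione list had 10 of 20 members above (50%) and 3 below (15%), with a median of 0.23. Besides Cth and Chac1, which it shares with the ATF4 list, it held Gclm, the regulatory subunit of the enzyme that opens glutathione synthesis, at 10.78 and 10.91 in the Hom-NMyc arrays against 10.25 to 10.51 in the other 4. Antioxidant enzymes had 10 of 20 above (50%) and 1 below (5%), with a median of 0.18. Cat, the catalase of peroxisomes, read 11.38 and 11.44 in the Hom-NMyc arrays, against 10.66 to 11.10 in the other 4 (0.56, SE 0.16, adjusted p = 0.406), and Nqo1, an NRF2 target, differed by 0.59 with overlapping groups. In these 3 lists 0 members were called, and with the control-set contrast as a covariate their medians were 0.23, 0.20 and 0.14.

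Of 36 measured p53 targets, 12 lay above all 4 others and 2 below, with a median of 0.13 (0.14 with the control-set contrast as a covariate) and 0 called. Cdkn1a, the cell cycle inhibitor p21, read 11.13 and 10.99 in the Hom-NMyc arrays, against 10.30 and 10.18 in the WT-NMyc arrays and 10.68 and 10.63 in the Het-NMyc arrays (0.62, SE 0.17, limma's adjusted p = 0.404). Mdm2, the ubiquitin ligase of p53, read 9.94 and 9.95 in the Hom-NMyc arrays, against 9.37 to 9.64 in the other 4. Ccng1, cyclin G1, read 11.02 and 11.09 in the Hom-NMyc arrays, against 10.52 to 10.63 in the other 4. For all 3 genes the Hom-NMyc arrays lay above the other 4, and for Cdkn1a the Het-NMyc arrays lay between the other genotypes. The members on the lower side were Bbc3 (PUMA, a proapoptotic BH3-only protein), which differed by -0.40, and Tigar, a fructose bisphosphatase, by -0.37.

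Within the MYC family, endogenous Myc read 10.35 and 10.64 in the Hom-NMyc arrays, against 9.45 and 9.93 in the WT-NMyc arrays and 9.87 and 10.03 in the Het-NMyc arrays. Both Hom-NMyc arrays were the highest (0.68, SE 0.15, limma's adjusted p = 0.282). The MAX partners Mxd4 and Mnt, which oppose MYC, differed by -0.39 and -0.37. Over the 13 members 2 lay above (15.4%) and 5 below (38.5%), against 27.2% and 13.2% of the brightest 25%. The median of that list was -0.03. Among lists of growth and mitochondrial genes, the median was 0.08 for ribosome biogenesis, -0.01 for the mitochondrial ribosome and 0.05 for both complex I and complexes II to V, against 0.06 for the brightest 25%. It was 0.14 for the TCA cycle (11 of 28 members above, 2 below), 0.14 for fatty acid oxidation (7 of 19 above, 3 below) and 0.11 for mitochondrial chaperones and proteases (8 of 21 above, 2 below). The shares above were 39.3%, 36.8% and 38.1%, against 27.2% of the brightest 25%. Those below were 7.14%, 15.8% and 9.52%, against 13.2%. With the control-set contrast as a covariate these last 3 medians were 0.02, 0.03 and -0.0006. In sterol and fatty acid synthesis 0 of 21 members lay above and 6 below (28.6%), with a median of -0.12. Scd1 was joined there by Insig1, a sterol-regulated retention factor, at 9.29 and 9.25 in the Hom-NMyc arrays against 9.77 to 10.06 in the other 4 (-0.63, SE 0.19, adjusted p = 0.411). The median of that list was 0.0003 within replicate 1 and -0.26 within replicate 2. The 6 members below all 4 others are lower within both numbers by definition, so they say nothing about that split.

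Markers of blood lineages were read in the same way, and 0 were called. Of the mast cell and basophil list, 11 of 20 members lay above (55%) and 1 below (5%), against 27.2% and 13.2% of the brightest 25%. The median was 0.25, and 0.26 with the control-set contrast as a covariate. All 4 defining mast cell markers were above, and their summed level was 40.73 to 40.78 in the Hom-NMyc arrays against 38.72 to 39.51 in the other 4. Ms4a2, a chain of the high-affinity IgE receptor, read 10.80 and 10.67 in the Hom-NMyc arrays, against 9.99 to 10.34 in the other 4 (0.58, SE 0.17, limma's adjusted p = 0.406), and Fcer1a, the chain of that receptor that binds IgE, differed by 0.48. Kit, the receptor of stem cell factor, and Cd34, a progenitor antigen, differed by 0.54 and 0.66. The stem and progenitor list as a whole had 2 of 19 members above (10.5%), against 14.6% of all probe sets and 27.2% of the brightest 25%. It had 1 below (5.26%), and its median was 0.03. The hematopoietic markers Ptprc and Spi1 differed by -0.02 and -0.10. The neutrophil granule list had 2 of 25 members above (8%) and 7 below (28%), with a median of 0.04. Stfa1, Stfa2 and Stfa3, stefins of the same gene cluster as Cstdc5, differed by -0.84, -0.54 and -0.90, and their near-identical sequences make single values uncertain. The summed level of 7 defining neutrophil markers was 81.4 to 83.0 in the Hom-NMyc arrays against 82.0 to 82.7 in the other 4. The part of cell composition in the lists above was not tested.

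**Figure D4:**
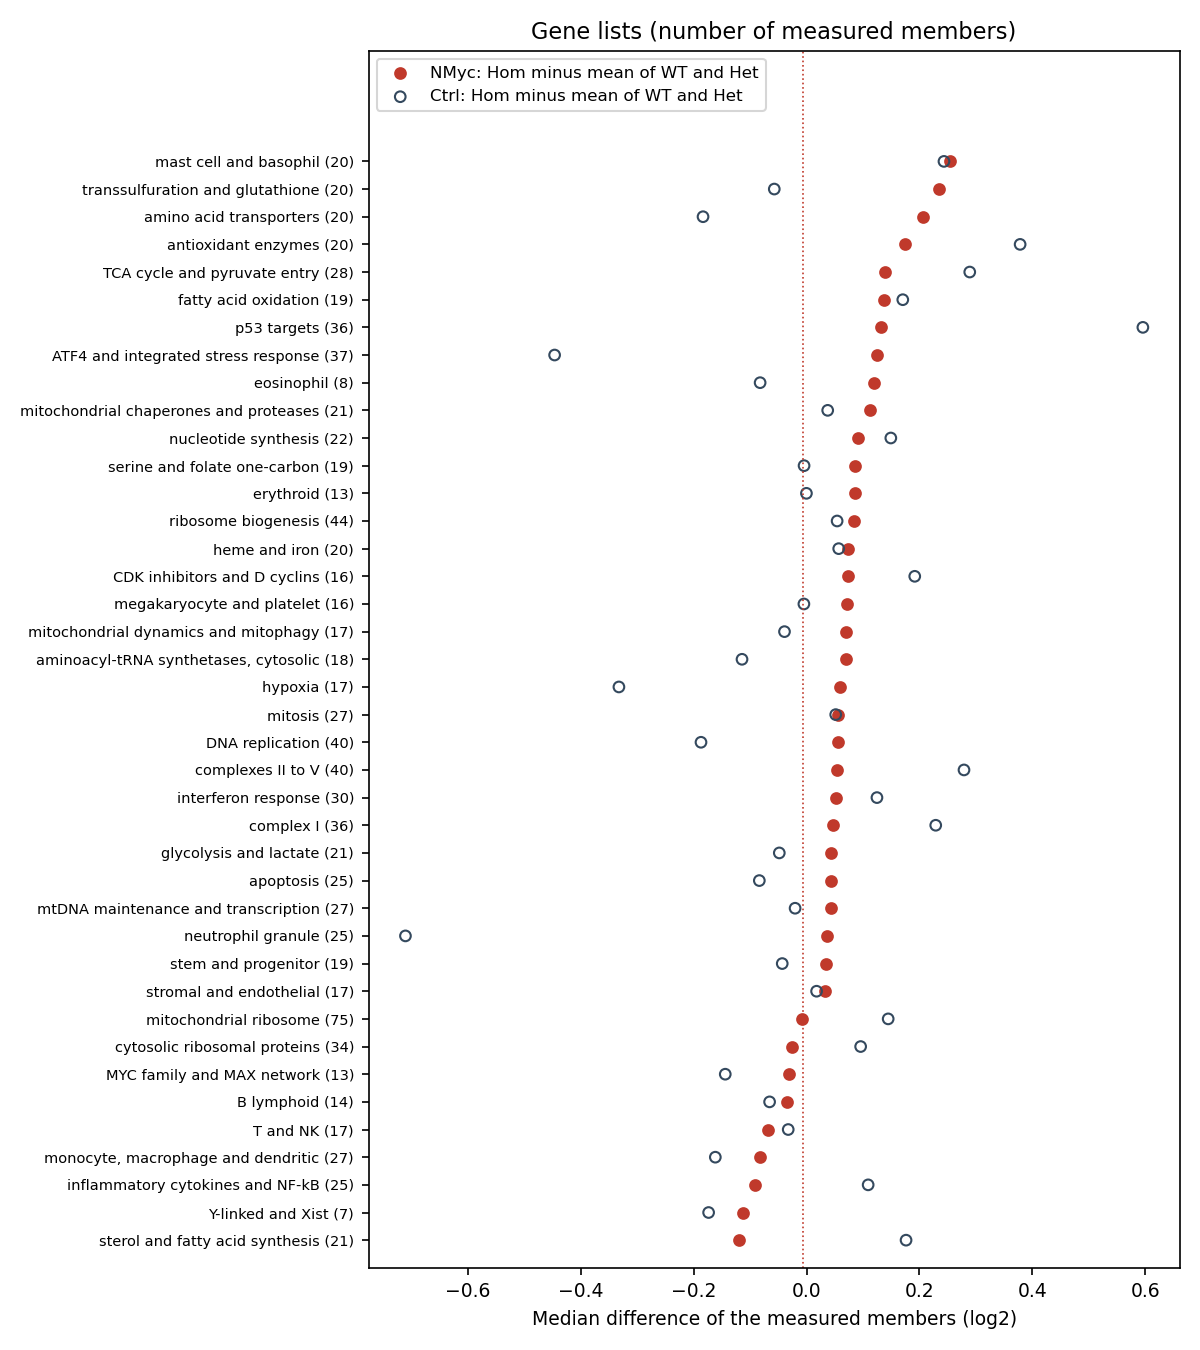
Each row is a gene list with its number of measured members, and points give the median log2 difference between Hom and the mean of WT and Het, filled red with NMyc and open with Ctrl, while the dotted line marks the NMyc median of all tested probe sets (-0.01). The NMyc medians run from -0.12 for sterol and fatty acid synthesis to 0.25 for mast cells and basophils, and the Ctrl medians of the p53 (0.60), ATF4 (-0.45) and neutrophil granule (-0.71) lists lie farther from 0.

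With the Ctrl vector the same genotype difference spread more widely, with 95% of probe sets within 0.61 of 0. There, Hom-Ctrl against WT-Ctrl and Het-Ctrl gave 1091 calls with limma (4.91%), 593 higher (2.67%) and 498 lower (2.24%), from 2 and 6 arrays. That count was 140 without Hom-Ctrl replicate 2 and 705 without Hom-Ctrl replicate 1. Hom-Ctrl replicate 1 had a Mycn value of 9.77, between those of the other Ctrl arrays (7.43 to 7.76) and those of the NMyc arrays. The 593 probe sets that rose in Hom-Ctrl had a median difference of 0.24 under NMyc and 0.72 under Ctrl. Of these, 295 (49.7%) lay above all 4 others under NMyc, against 14.6% of all probe sets and 27.2% of the brightest 25%. The 498 that fell had medians of -0.09 under NMyc and -0.75 under Ctrl. Of these, 110 (22.1%) lay below all 4 others under NMyc, against 11.3% of all probe sets and 13.2% of the brightest 25%. Of 18 p53 targets that rose in Hom-Ctrl, 14 had a difference above 0 under NMyc, 9 of them without overlap. Of 9 ATF4 targets that fell in Hom-Ctrl, 4 had a difference above 0 under NMyc, 3 of them without overlap, and 1 lay below all 4 others. The median of these 9 was -0.05 under NMyc and -0.85 under Ctrl.

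The difference between the vectors was itself tested for every probe set. The genotype difference under NMyc minus that under Ctrl was called by limma for 42 probe sets (0.189%), 37 positive (0.167%) and 5 negative (0.0225%). All 37 positive ones had a difference below 0 under Ctrl, and 29 had a difference above 0 under NMyc. Of the 42, 39 were also called under Ctrl and 18 reached an unadjusted p under 0.05 under NMyc. The count was 0 without Hom-NMyc replicate 2, 12 without Hom-NMyc replicate 1, 12 without Hom-Ctrl replicate 2, 13 and 15 without WT-NMyc replicate 1 or 2, and 12 and 16 without Het-NMyc replicate 1 or 2. It was also 21, 27 and 24 without Het-Ctrl replicates 1 to 3. The count therefore depended on single arrays, most on Hom-NMyc replicate 2.

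The ATF4 targets Cth, Chac1 and Vldlr were among the 37. Cth differed by 1.02 under NMyc and by -1.20 under Ctrl, a change of 2.22 between vectors (SE 0.31, limma's adjusted p = 0.0107, called in 18 of 22 alternatives). Under Ctrl it read 7.40 and 7.43 in the Hom-Ctrl arrays, against 8.21 to 9.16 in the other 6. Cth was thus highest in homozygous cells with N-Myc and lowest in homozygous cells without it. Chac1, a glutathione-degrading enzyme, differed by 0.45 under NMyc and -1.06 under Ctrl (change 1.51, SE 0.22, adjusted p = 0.0107, called in 19 of 22 alternatives). Vldlr, a lipoprotein receptor named here after its values were seen, differed by 0.39 and -0.96. Other blood cell genes had the same signs: Siglecf, a lectin of eosinophils (0.61 and -1.04), Gpr141, an orphan receptor (0.69 and -0.89), the transporter Slco4c1 (0.65 and -0.999) and Nxpe5 (0.49 and -1.02).

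Serpinb10 and Tifab, named above for the main comparison, were also called here, and their difference was mainly under NMyc. Both tests use the same NMyc arrays, so these calls are not independent of that naming. Serpinb10 differed by 1.04 under NMyc and -0.16 under Ctrl (change 1.20, SE 0.20, limma's adjusted p = 0.0265). Tifab differed by 0.95 and -0.42 (change 1.37, SE 0.23, adjusted p = 0.0305). For the genes that follow, also named by rule for this comparison, the difference was mainly under Ctrl. Ltf, the neutrophil granule protein lactoferrin, read 9.34 and 9.73 in the Hom-NMyc arrays and 9.30 to 9.54 in the other NMyc arrays, while Hom-Ctrl read 10.81 and 10.29 against 11.89 to 12.003 in WT-Ctrl and Het-Ctrl. Its change was 1.51 (SE 0.22, limma's adjusted p = 0.0115). Ipcef1 had a change of 1.52, with -0.06 under NMyc. Bcl2a1b and Bcl2a1d, near-identical BCL2 relatives whose values cannot be fully told apart on an array, had changes of 1.64 and 1.62. On the negative side, Eda2r, a p53-induced death receptor, differed by 0.45 under NMyc and 2.01 under Ctrl (change -1.56, SE 0.29, adjusted p = 0.0473). That call held in 5 of 21 alternatives (adjusted p up to 0.375), and the level under Ctrl is only partly measured, since 4 of the 6 WT-Ctrl and Het-Ctrl arrays were not brighter than the middle value of the negative controls. Mtap, the methylthioadenosine phosphorylase of methionine salvage, differed by 0.23 under NMyc and 1.44 under Ctrl, a change of -1.21. Tnfrsf8 (CD30) had a change of -1.12 and Olfr266, an olfactory receptor gene, of -2.53. Ptgds, a prostaglandin D synthase, had a change of -1.89, but all 6 NMyc arrays and all 6 WT-Ctrl and Het-Ctrl arrays were not above the negative control median, so that value is a bound.

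**Figure D5:**
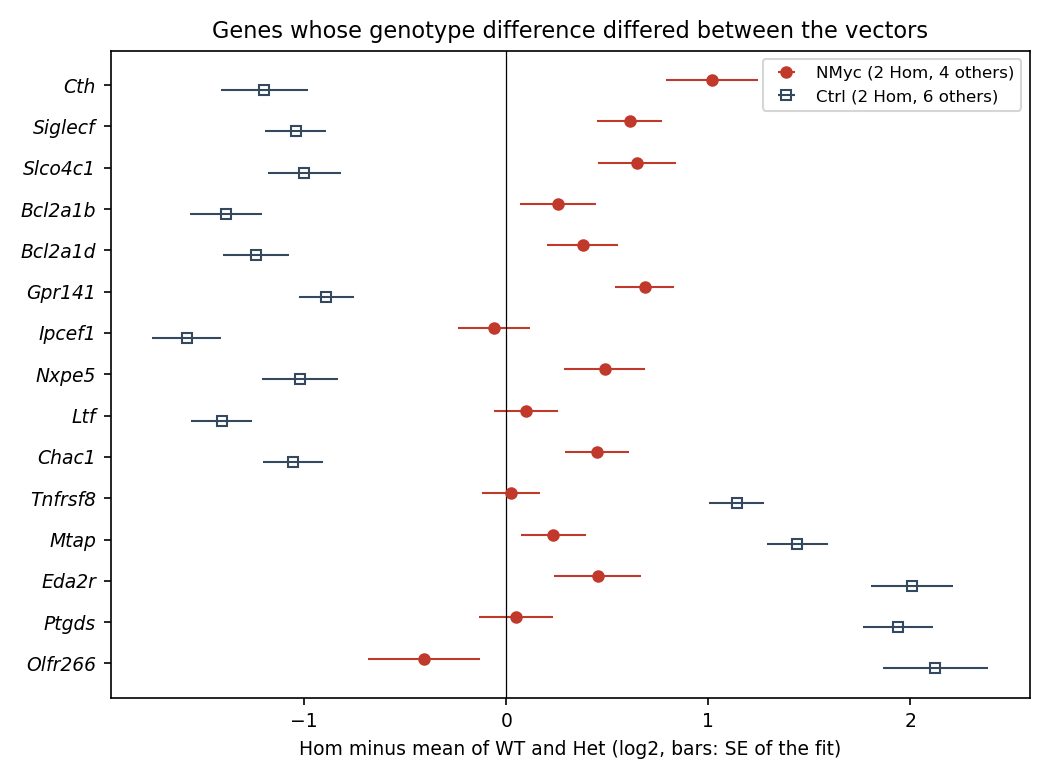
Points give the log2 difference between Hom and the mean of WT and Het for the 15 genes named by rule, with NMyc in red circles, Ctrl in open squares and bars for the SE of the fit (2 Hom and 4 other arrays with NMyc, 2 and 6 with Ctrl). Cth is at 1.02 with NMyc and -1.20 with Ctrl, while Ltf (0.10 and -1.41) and Mtap (0.23 and 1.44) lie near 0 with NMyc.

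Heterozygous against wild-type cells with N-Myc gave 0 calls, and the 10 genes named for it, the 5 with the smallest p in each direction, had unadjusted limma p-values between 0.000384 and 0.00403 and adjusted values of 1. In 9 of them every NMyc array was below the 95th percentile of the negative control sets (7.51). The exception was Nmnat1, the nuclear enzyme of NAD synthesis, which read 7.36 and 7.45 in the Het-NMyc arrays, against 6.79 and 6.89 in the WT-NMyc arrays, with 7.63 and 7.57 in the Hom-NMyc arrays.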

How the data were processed

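The deposited values are on the log2 scale, 1 for each probe set in each array. The submitters' processing notes name Affymetrix Expression Console, and which version, summary method or normalization the authors used is not stated there. The values ran from 2.24 to 13.5, and no further scaling was applied, so a shift common to most transcripts could have been removed before deposit. For arrays, their number limits the precision. Of 28846 probe sets, 6640 control sets, recognised by their IDs, were left out. Of the 22206 tested, 19572 carried 1 symbol, updated through RefSeq (0 changed), and 2634 were unnamed.

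Tests used limma 3.58.1 in R 4.3.3: 6 group means were fitted to all 14 arrays (8 residual degrees of freedom, 7.3 prior), two-sided, with Benjamini-Hochberg adjustment over all tested probe sets and calls at an adjusted p under 0.05. "Above all 4" means that both Hom-NMyc arrays exceed all 4 others. Genes were named by rule: the 5 with the smallest p per direction where under 5 were called, up to 10 called per direction for the difference between vectors, and Mycn, Myc, Polg and Xist, which matched no probe set. No list held a member called in the main comparison. The other list members named and the promoters shown therefore fall outside these rules and were chosen after their values were seen. The members, lists and rules were chosen with earlier results of these data known. For symbols with several probe sets, the brightest was used. Replicate numbers were not taken to pair samples: deviations of same-numbered NMyc arrays correlated at 0.07 to 0.11 across probe sets, and there were only 2 numbers. The second principal component of the NMyc arrays did separate the numbers, and a replicate block is among the alternatives. The alternatives were normalization, filters, blocks, fewer arrays, variance trend and leaving out each array.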

Additional observations from a re-analysis of the deposited data

Results flagged for a closer look

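For 42 probe sets the genotype difference differed between the vectors in limma's test of the difference itself, and the values given here are the difference under NMyc minus that under Ctrl on the log2 scale. The positive ones named by rule were Cth (2.22), Siglecf (1.65), Slco4c1 (1.65), Bcl2a1b (1.64), Bcl2a1d (1.62), Gpr141 (1.58), Ipcef1 (1.52), Nxpe5 (1.51), Ltf (1.51) and Chac1 (1.51). The negative ones were Olfr266 (-2.53), Ptgds (-1.89), Eda2r (-1.56), Mtap (-1.21) and Tnfrsf8 (-1.12). No group of the labels held 4 or more arrays, so single outlying arrays were not tested for.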

How the results depend on the processing

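There were 25 alternatives, of which 14 left out 1 array each. Under those that gave a value, the differences of 140 genes under NMyc and of 15 genes between vectors kept their sign. Most of these genes were chosen by their p or size in these same arrays, so the kept sign was largely fixed by that choice. Of the 40 list medians, 21 changed sign under at least 1 alternative (36 of 997 values). The p53, ATF4, amino acid transporter, glutathione, antioxidant, mast cell and sterol lists were not among them. The median of all probe sets turned to 0.0098 with median centring, against -0.0061. The count of 0 for Hom-NMyc against WT-NMyc and Het-NMyc became 1 with the replicate block on 14 arrays (Slc7a3, limma's adjusted p = 0.0241), 1 with the filter on dim probe sets (Serpinb10, 0.02), 1 with an intensity trend and robust variances (Serpinb10, 0.00623) and 2 with only the AFFX sets left out (both control sets). It was 2 with the contrast of the control sets as a covariate, an alternative added after seeing the data (Serpinb10 and Papss2, both 0.0478). Against WT-NMyc alone, the replicate block gave 1 (Slc7a3, 0.0137), the filter 1 (Serpinb10, 0.0348) and the trend 1 (Serpinb10, 0.0132). The block on the NMyc arrays alone gave 0 calls (smallest adjusted p = 0.177), and for the other comparisons the block stayed within 1.5 times of the count given (863 under Ctrl, 48 for the difference between vectors). The 42 probe sets that differed between vectors became 26 with quantile normalization, 79 with the filter, 8 with only the AFFX sets left out and 100 with the trend, and the Ctrl count became 722 with only the AFFX sets left out. Leaving out single arrays gave 0 to 1 calls for the main comparison and for Hom-NMyc against Het-NMyc, 0 in the other 2 NMyc comparisons, 140 to 1248 under Ctrl and 0 to 58 for the difference between vectors. The filter kept 8950 probe sets, and the cause of the other changes was not tested. For the 15 genes named for the difference between vectors, 98 of 327 values were no longer past the threshold under an alternative.

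With 2 Hom-NMyc arrays and a median SE of 0.17, a change of the median size seen under N-Myc (0.14) is not detectable, so 0 calls do not show that the genotypes were alike. The replicate number coincides with a run of sample codes in the NMyc arrays. Dim genes have only bounds.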

Other observations

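Of 30 measured members of the interferon list, 8 lay above all 4 other arrays and 1 below, with a median of 0.05 and 0 called by limma. That share (26.7%) compares with 14.6% of all probe sets and 27.2% of the brightest 25%, and 16 of the 30 differences were above 0. The mean level of the list was 5.76 to 6.05 in the NMyc arrays, against 6.56 to 6.60 for all probe sets, so the brightest 25% is not its reference. At the unadjusted threshold 7 members read higher and 0 lower, against 5.09% and 2.99% of all probe sets. Ifih1 (MDA5, a sensor of double-stranded RNA) read 7.98 and 8.04 in the Hom-NMyc arrays, against 7.27 and 7.35 in the WT-NMyc arrays and 7.62 and 7.67 in the Het-NMyc arrays (0.53, SE 0.15, adjusted p = 0.394). Tap1, the antigen peptide transporter, read 9.24 and 9.21 in the Hom-NMyc arrays, against 8.60 to 8.93 in the other 4. For both genes the Hom-NMyc arrays lay above the other 4. Inflammatory cytokine and NF-kB genes had 1 of 25 members above (4%) and 6 below (24%). The shares were 14.6% and 11.3% for all probe sets and 27.2% and 13.2% for the brightest 25%. Among the 6 was Ccl3, a macrophage chemokine, at 10.27 and 10.70 in the Hom-NMyc arrays against 10.92 to 11.49 in the other 4 (-0.69, SE 0.17, limma's adjusted p = 0.341).

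Probe sets whose IDs place them on the mitochondrial chromosome carry no symbol in the tables used. Their 9 differences between Hom-NMyc and the other genotypes ran from -0.33 to 0.0007 with a median of -0.08, and the smallest adjusted p was 0.701. The brightest 1% of all values began at 11.9, and 7 of these 9 sets exceeded it on average. The Y-linked gene Eif2s3y read 8.97 and 8.23 in the Hom-NMyc arrays, against 9.50 and 9.25 in the WT-NMyc arrays and 9.49 and 8.40 in the Het-NMyc arrays, with overlapping groups.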
